A study of Mus musculus with 14 samples.

Results

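The genes described here are the aquaporins and vasopressin receptor 2 of the mouse kidney. They are *Aqp1*, *Aqp2*, *Aqp3*, *Aqp4*, *Aqp5*, *Aqp6*, *Aqp7*, *Aqp8*, *Aqp11*, and *Avpr2*, chosen by name from the 21878 genes with a deposited expression value in each of 14 mice. All 10 passed the filter on low values (0.1 FPKM or more in 3 or more mice) and were among the 14912 genes tested. FPKM counts the fragments of a gene per unit of transcript length and per unit of sequencing depth, so levels can be compared between genes. *Mip*, *Aqp9*, and *Aqp12*, the other aquaporin genes in the files, were at most 0.0925 FPKM in any mouse, with *Aqp12* listed at 0 in all of them, and were not tested.

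Aquaporins are membrane channels that let water, and in some cases glycerol or other small solutes, follow an osmotic gradient. In the proximal tubule and the thin descending limb water passes through AQP1. In the collecting duct, vasopressin binds its receptor AVPR2 on the principal cell and raises cAMP, which sends AQP2 from vesicles to the apical membrane and, over longer times, raises *Aqp2* transcription. Water then leaves the cell through AQP3 and AQP4 in the basolateral membrane. Loss of AVPR2 or AQP2 causes nephrogenic diabetes insipidus, in which urine cannot be concentrated, and glucose in the urine of diabetic animals draws water with it.

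Kidney RNA came from male C57BL/6J mice in 4 groups read from the sample names, namely 3 WT control, 4 WT diabetic, 3 *Cfb-/-* control, and 4 *Cfb-/-* diabetic mice. Diabetic mice were fed a high-fat diet (HFD), with 60% of calories from fat, for 4 weeks and were then given streptozotocin (STZ), a toxin of the insulin-producing beta cell, at 60 mg/kg on 5 days. Control mice had chow with 10% of calories from fat and injections of the citrate buffer. HFD and STZ therefore always came together, and their effects cannot be told apart. *Cfb* encodes complement factor B of the alternative pathway. *Cfb-/-* mice were global knockouts by the growth protocol, although another label writes knockdown, and the labels of the control mice repeat the treatment text of the diabetic mice while giving the disease state as healthy. A time of 34 weeks is given with no starting point, and the labels name the tissue only as kidney, without the region taken.

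*Cfb* was 1.13 to 2.22 FPKM in the 7 *Cfb-/-* mice and 56.7 to 131 FPKM in the 7 WT mice. Read numbers are unknown here, and FPKM summed to between 330246 and 488196 per mouse. Changes below are differences of mean log2(FPKM + 0.1) from limma, fitted to all mice and all tested genes, with p adjusted by the method of Benjamini and Hochberg. On this scale the change of a low gene is understated. Nothing in the labels says how the mice of a group were kept or sampled. The p from limma measures the spread between these mice, pooled over the 4 groups and drawn toward a trend over all tested genes. A member therefore has the same SE for diabetes in both genotypes. The tested genes as a whole were higher with diabetes, by a median of 0.29 in WT and 0.22 in *Cfb-/-* mice. Higher genes made up 78.4% of the called genes in WT mice, against 50.3% after median-ratio scaling, 44.2% after quantile normalization, and 94.0% when each mouse was scaled to 1000000. The same shares in *Cfb-/-* mice were 81.0%, 56.8%, 49.1%, and 92.0%. The changes of called members are therefore also given relative to the median of all genes.

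In RefSeq's annotation of GRCm38.p6, the build named in the labels, *Aqp2* (chr15:99579056-99584545), *Aqp5* (chr15:99591028-99594829), and *Aqp6* (chr15:99598468-99605478) lie in a row on the plus strand, 6482 and 3638 bases apart. A noncoding locus, *Gm34765*, overlaps all of them, and whether its reads were counted with them is not stated in the sources used here. Because these neighbours rose together in WT diabetic mice, the 250 bases before their annotated starts are printed from RefSeq, with those of *Aqp11*, which fell in both genotypes. Capitals mark matches, on either strand, to any of 4 motifs. The first is GACGTCA, which covers most of the cAMP response element bound by CREB. Another is GATAA, the letters known to bind the GATA family of factors, which reads TTATC on the opposite strand. The third is the box TATAAA found near many starts, and the last is the E-box CACGTG.
*Aqp2*, chr15:99578806-99579055, plus strand: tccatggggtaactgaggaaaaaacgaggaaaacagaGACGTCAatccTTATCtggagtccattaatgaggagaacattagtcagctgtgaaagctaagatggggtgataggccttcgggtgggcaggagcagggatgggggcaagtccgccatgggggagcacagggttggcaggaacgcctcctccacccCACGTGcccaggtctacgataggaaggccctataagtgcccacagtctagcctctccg
*Aqp5*, chr15:99590778-99591027, plus strand: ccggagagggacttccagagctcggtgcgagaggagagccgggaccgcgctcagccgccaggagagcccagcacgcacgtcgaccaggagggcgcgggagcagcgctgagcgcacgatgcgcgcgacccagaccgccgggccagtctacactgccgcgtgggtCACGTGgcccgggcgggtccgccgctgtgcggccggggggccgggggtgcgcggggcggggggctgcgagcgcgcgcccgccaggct
*Aqp6*, chr15:99600950-99601199, plus strand: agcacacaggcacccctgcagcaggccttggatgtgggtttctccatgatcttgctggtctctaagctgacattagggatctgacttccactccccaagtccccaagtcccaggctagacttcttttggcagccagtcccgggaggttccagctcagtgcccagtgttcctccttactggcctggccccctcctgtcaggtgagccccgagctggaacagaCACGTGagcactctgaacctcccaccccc
*Aqp11*, chr7:97738248-97738497, minus strand: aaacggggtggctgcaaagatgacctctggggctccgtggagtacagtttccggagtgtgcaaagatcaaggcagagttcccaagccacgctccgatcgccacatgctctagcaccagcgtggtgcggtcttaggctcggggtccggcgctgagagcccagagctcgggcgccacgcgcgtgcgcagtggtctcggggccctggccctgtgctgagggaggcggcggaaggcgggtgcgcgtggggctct

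Only *Aqp2* of these 4 held GACGTCA, 213 bases before the start, with TTATC 202 bases before it. GACGTCA on either strand was found in 2.78% of the 32851 promoters of that length, and GATAA in 22.6%. The E-box stood in the *Aqp2*, *Aqp5*, and *Aqp6* sequences, 58, 87, and 29 bases before the start, and in that of *Aqp8*, and was found in 6.02% of all promoters. The *Aqp11* sequence held none of the 4 motifs, and TATAAA, found in 12.4% of all promoters, was in none of the 4 sequences. The *Aqp6* sequence belongs to a start within the annotated span of the gene. These are matches of letters, and binding was not measured.

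In the kidneys of WT control mice the levels of the members spanned more than 3 orders of magnitude. *Aqp1* led with 294 ± 41.5 FPKM (SD, n = 3), followed by *Aqp2* with 113 ± 31.4, *Aqp3* with 46.1 ± 6.02, *Aqp11* with 37.8 ± 3.77, *Aqp6* with 10.8 ± 0.617, *Avpr2* with 9.57 ± 1.48, *Aqp4* with 5.11 ± 4.60, *Aqp7* with 3.68 ± 0.910, *Aqp8* with 1.57 ± 0.945, and *Aqp5* with 0.0698 ± 0.0516 FPKM. The ranges of *Aqp3* and *Aqp11* overlapped, as did those of *Aqp6* with *Avpr2*, *Avpr2* with *Aqp4*, and *Aqp4* with *Aqp7*. *Aqp1* alone made up 54.5% to 62.3% of the summed FPKM of the 9 aquaporins in these mice. In both diabetic groups *Aqp6* stood above *Aqp11* on average, with overlapping ranges, whereas in both control groups *Aqp11* was above *Aqp6* in every mouse. *Aqp6* divided by *Aqp11* was 0.268, 0.287, and 0.306 in WT control mice and 0.964, 1.41, 1.38, and 1.76 in WT diabetic mice. The *Cfb-/-* groups had a ratio of 0.387, 0.283, and 0.480 in controls and 2.34, 1.46, 0.698, and 1.43 in diabetic animals. This ratio was chosen after the values were seen, and it does not depend on how a mouse is scaled.

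**Figure D1:**
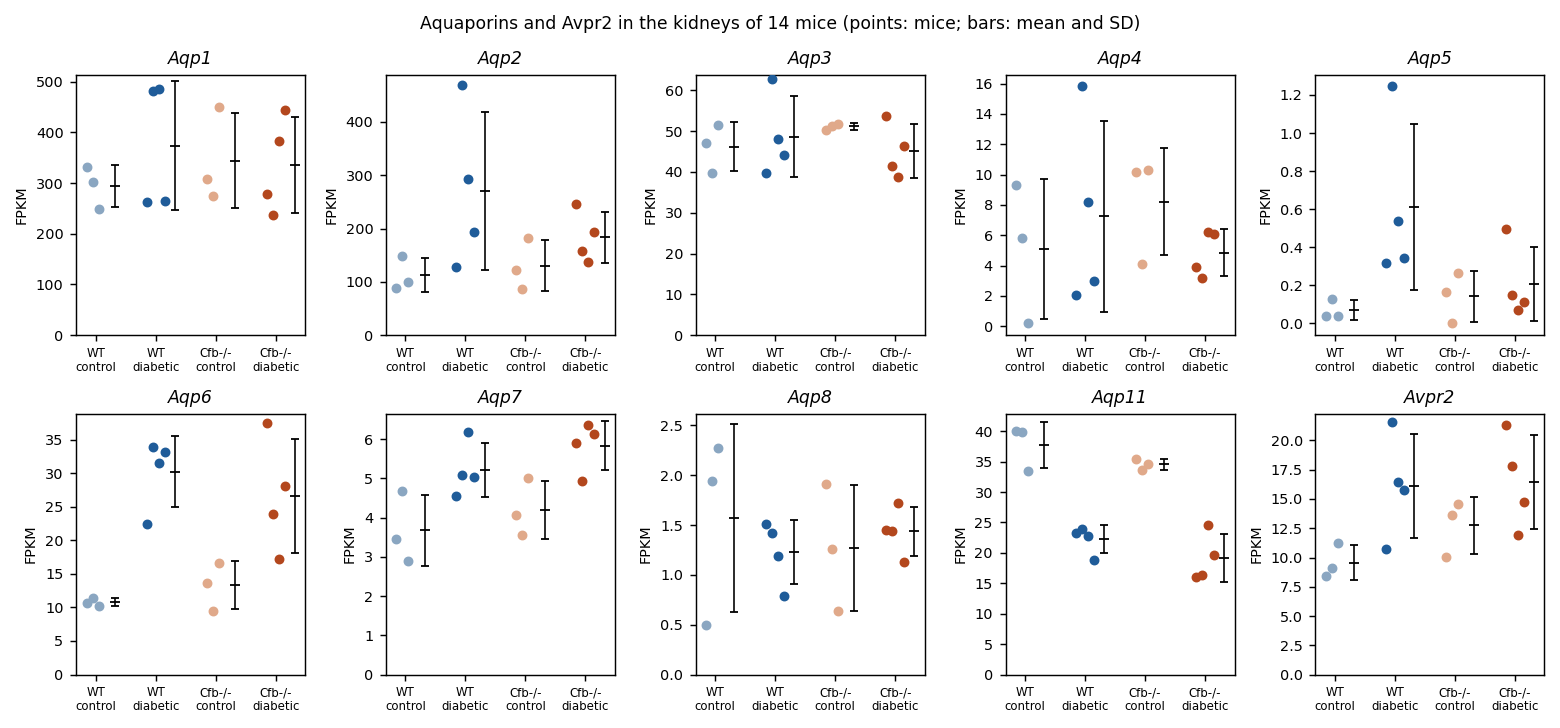
Expression of the 10 members in FPKM (vertical axes, linear, each from 0 or just below it) in each of 14 mice (points), with the mean and SD of each group (bars). For *Aqp6* and *Aqp11* the diabetic and control mice do not overlap within either genotype, and for *Aqp5* they overlap only in *Cfb-/-* mice. For *Aqp1*, *Aqp2*, *Aqp3*, *Aqp4*, *Aqp7*, *Aqp8*, and *Avpr2* they overlap in both.

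Of the 10 members, 5 rose in WT diabetic mice (*Aqp2*, *Aqp5*, *Aqp6*, *Aqp7*, and *Avpr2*), beside 36.2% of all tested genes, and 1 fell (*Aqp11*), beside 9.97%. In *Cfb-/-* mice 2 rose (*Aqp6* and *Aqp7*), beside 27.4%, and 1 fell (*Aqp11*), beside 6.40%. With so wide a response over all genes, counts of this size do not set the members apart. The groups did not overlap for 3 members in WT mice, beside 45.3% of all genes, and for 2 in *Cfb-/-* mice, beside 42.2%. For *Aqp6* and *Aqp11* the call was made in both genotypes and under each alternative that was run, 18 in WT and 17 in *Cfb-/-* mice. The other calls were each lost under at least 2 alternatives. With 4 mice against 3, an exact permutation test cannot give a two-sided p under 0.0571.

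**Figure D2:**
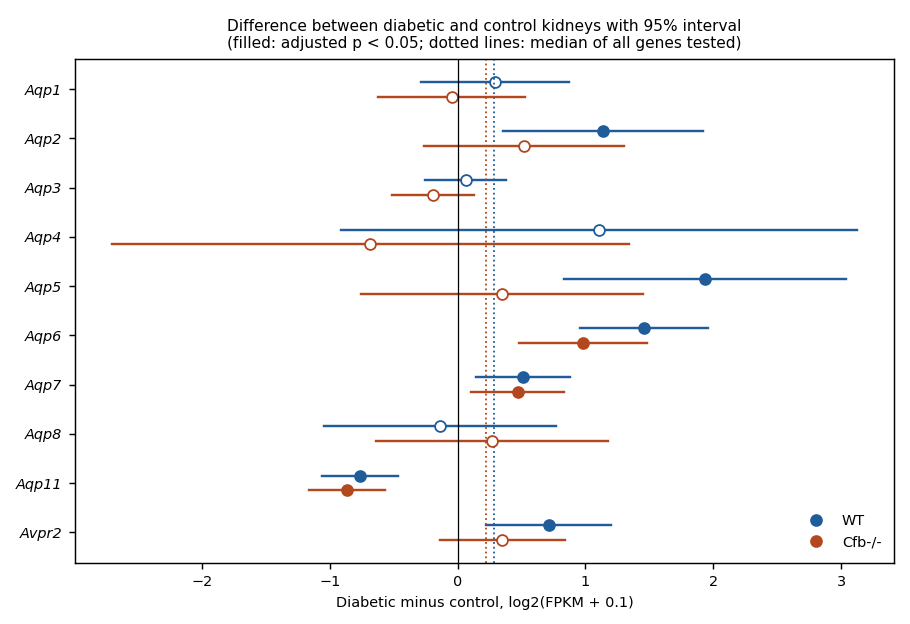
Difference between diabetic and control mice for each member, in log2(FPKM + 0.1) (horizontal axis), with its 95% interval from limma, in WT (blue) and *Cfb-/-* mice (brown). Filled circles passed an adjusted p of 0.05, and dotted lines mark the median of all tested genes, 0.29 in WT and 0.22 in *Cfb-/-* mice. *Aqp6* and *Aqp11* lie farthest from these medians relative to their intervals.

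*Avpr2*, the receptor through which vasopressin acts on the collecting duct, rose in WT diabetic mice. It was 8.40, 9.08, and 11.2 FPKM in the WT control mice and 10.7, 21.6, 16.4, and 15.7 FPKM in the WT diabetic mice. All WT diabetic mice but the first were above every WT control mouse. The mean rose from 9.57 ± 1.48 to 16.1 ± 4.46 FPKM (SD, n = 3 and 4), a log2 fold change of 0.71 (SE 0.23, adjusted p = 0.0204), or 0.43 above the median of all genes. On the *Cfb-/-* background it was 10.0, 13.6, and 14.6 FPKM in the *Cfb-/-* control mice and 21.3, 17.8, 12.0, and 14.7 FPKM in the *Cfb-/-* diabetic mice, with a log2 fold change of 0.35 (SE 0.23, adjusted p = 0.256) that did not pass the test. The WT call was lost without WT diabetic mouse 2, at 0.56 (adjusted p = 0.0589), and without WT control mouse 1, at 0.62 (adjusted p = 0.0612), or mouse 2, at 0.68 (adjusted p = 0.0689). It was also lost after median-ratio scaling, at 0.43 (adjusted p = 0.128), and quantile normalization, at 0.54 (adjusted p = 0.0756), and with no filter on low values, at 0.71 (adjusted p = 0.0553). *Avpr2* (chrX:73891765-73894428) overlaps *Arhgap4* on the opposite strand. The library kit marks strand, but whether the counting used it is not stated in the sources used here. *Arhgap4* was 0.615 to 2.14 FPKM over the 14 mice, below *Avpr2* in each group. Its own log2 fold change was 0.74 (SE 0.30, adjusted p = 0.0590) in WT and 0.85 (SE 0.30, adjusted p = 0.0438) in *Cfb-/-* mice. The part of *Arhgap4* reads in the values of *Avpr2* was not tested.

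*Aqp2*, the vasopressin-regulated channel of the apical membrane, rose in WT diabetic mice. It was 89.5, 148, and 100.2 FPKM in the WT control mice and 129, 469, 292, and 194 FPKM in the WT diabetic mice. The first WT diabetic mouse lay within the control range, and mice 2 and 3 stood well above the rest. The group mean went from 113 ± 31.4 to 271 ± 148 FPKM, with a log2 fold change of 1.14 (SE 0.37, adjusted p = 0.0212), or 0.85 above the median of all genes. With *Cfb* deleted it was 123, 87.2, and 182 FPKM in the *Cfb-/-* control mice and 246, 158, 137, and 193 FPKM in the *Cfb-/-* diabetic mice. These groups overlapped through the third control mouse, and the log2 fold change of 0.52 (SE 0.37, adjusted p = 0.298) did not pass the test. The WT call was lost without WT diabetic mouse 2, at 0.82 (adjusted p = 0.0563), or mouse 3, at 1.05 (adjusted p = 0.0505), and without WT control mouse 1, at 0.99 (adjusted p = 0.0655), or mouse 3, at 1.07 (adjusted p = 0.0618). It was also lost after median-ratio scaling, at 0.85 (adjusted p = 0.0788), and with no filter on low values, at 1.14 (adjusted p = 0.0639). In bulk kidney RNA a change in the number of principal cells and a change in RNA per cell cannot be told apart.

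*Aqp3*, the basolateral channel of the same cells, which also passes glycerol, varied least of the members. It was 47.1, 39.7, and 51.6 FPKM in the WT control mice and 39.8, 62.6, 48.0, and 44.2 FPKM in the WT diabetic mice, and 50.3, 51.3, and 51.8 FPKM in the *Cfb-/-* control mice and 53.7, 41.5, 38.7, and 46.4 FPKM in the *Cfb-/-* diabetic mice. Over all 14 mice its highest value was 1.62 times its lowest, against 5.38 times for *Aqp2*. The log2 fold change with diabetes was 0.063 (SE 0.15, adjusted p = 0.746) in WT and -0.19 (SE 0.15, adjusted p = 0.339) in *Cfb-/-* mice. The 95% interval ran from -0.25 to 0.38 in WT mice. After median-ratio scaling *Aqp3* turned lower in WT mice, at -0.22 (adjusted p = 0.221), and fell in *Cfb-/-* mice, at -0.44 (adjusted p = 0.0290). *Aqp2* divided by *Aqp3*, a ratio within a mouse chosen after the values were seen, was 1.90, 3.74, and 1.94 in WT control and 3.24, 7.49, 6.09, and 4.40 in WT diabetic mice. It was 2.44, 1.70, and 3.51 in *Cfb-/-* control and 4.58, 3.80, 3.55, and 4.15 in *Cfb-/-* diabetic mice, where the highest control mouse lay just below the lowest diabetic mouse.

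*Aqp4*, a basolateral water channel of the medullary collecting duct and of the mouse proximal straight tubule, had the widest range over the mice of the members above 0 in each of them. It was 9.32, 5.81, and 0.192 FPKM in the WT control mice and 2.10, 15.8, 8.17, and 2.95 FPKM in the WT diabetic mice. The third WT control mouse was far below all others, and the second WT diabetic mouse was above them. Among *Cfb-/-* animals it was 10.2, 4.12, and 10.3 FPKM in the *Cfb-/-* control mice and 3.93, 3.21, 6.22, and 6.09 FPKM in the *Cfb-/-* diabetic mice. Its log2 fold change was 1.11 (SE 0.94, adjusted p = 0.348) in WT and -0.68 (SE 0.94, adjusted p = 0.606) in *Cfb-/-* mice, neither past the test. Without WT control mouse 3 the WT value turned negative, at -0.45 (adjusted p = 0.587).

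A marker of the inner medulla varied widely between these kidneys. *Slc14a2*, the urea transporter of the inner medullary collecting duct, stood at 0.120, 3.93, and 0 FPKM in the WT controls and 0.111, 25.7, 16.4, and 2.78 FPKM in the WT diabetic animals. Among *Cfb-/-* animals it was 5.95, 1.39, and 15.5 FPKM in controls and 0.696, 0.161, 3.55, and 9.91 FPKM in diabetic animals. The WT diabetic mice with the most *Aqp2*, the second and the third, were thus those with the most *Slc14a2* of all mice. The WT control mouse with almost no *Aqp4* had *Slc14a2* listed at 0. WT diabetic mouse 1 had the least *Slc14a2*, *Aqp2*, and *Aqp4* of its group. Not every mouse matched in this way. WT control mouse 1, with *Slc14a2* at 0.120 FPKM, had 9.32 FPKM of *Aqp4*, the most of the WT controls. *Cfb-/-* control mouse 3, with *Slc14a2* at 15.5 FPKM, had 182 FPKM of *Aqp2*, against 292 FPKM in WT diabetic mouse 3. Within its own group that control mouse had the most of both genes. Of the 8 markers of the inner medulla and thin limb, 6 rose in WT diabetic mice and 1 in *Cfb-/-* diabetic mice, and their summed level was 118 to 175 FPKM in WT control and 266 to 563 FPKM in WT diabetic mice.

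Deviations of the members from their group means were compared with those of *Slc14a2* over the 14 mice, in 10 relations of which 3 passed an adjusted p of 0.05. They followed *Slc14a2* for *Aqp7*, with Pearson's r = 0.82 (permutation p = 0.00117, adjusted p = 0.0117) and Spearman's rho = 0.83 (permutation p = 9.80e-04, adjusted p = 0.00620). For *Aqp1*, r was 0.82 (permutation p = 0.00328, adjusted p = 0.0164) and rho 0.82 (permutation p = 0.00124, adjusted p = 0.00620). For *Aqp2*, r was 0.73 (permutation p = 0.0137, adjusted p = 0.0456) and rho 0.65 (permutation p = 0.0265, adjusted p = 0.0664). *Aqp4* passed by rank only, with r = 0.66 (permutation p = 0.0326, adjusted p = 0.0814) and rho = 0.74 (permutation p = 0.0107, adjusted p = 0.0358). Without the 2 mice farthest from the median of *Slc14a2*, WT control mouse 3 and WT diabetic mouse 1, r was 0.80 for *Aqp7*, 0.79 for *Aqp1*, 0.63 for *Aqp2*, and 0.57 for *Aqp4*. For the other 6 members r was between -0.059 (*Aqp8*) and 0.45 (*Aqp11*), with adjusted permutation p of at least 0.262. How many of all tested genes followed *Slc14a2* as closely is not given here, so these relations do not set the members apart. The comparison was not planned before the data were seen.

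With *Slc14a2* as a covariate, an alternative added after the data were seen, the WT log2 fold change of *Aqp2* was 0.63 (adjusted p = 0.0890) and that of *Avpr2* 0.64 (adjusted p = 0.0567), while in *Cfb-/-* mice *Aqp2* passed, at 0.78 (adjusted p = 0.0428). With both WT diabetic mice 2 and 3 left out, the value was 0.52 (adjusted p = 0.219) for *Aqp2* and 0.45 (adjusted p = 0.175) for *Avpr2*. Of 7 markers of the principal cell, which include no member, 2 rose in WT mice, *Npnt*, which encodes nephronectin, at 0.80 (adjusted p = 6.08e-04), and *Apela*, a peptide ligand of the apelin receptor, at 0.95 (adjusted p = 0.0401). *Scnn1b* and *Scnn1g*, subunits of the epithelial sodium channel, were at 0.22 (adjusted p = 0.551) and 0.37 (adjusted p = 0.252). The median of the 7 was 0.36, beside 0.29 for all genes. Of 7 markers of the urothelium, the lining of the renal pelvis, all 7 rose in WT diabetic mice and 1, *Krt20*, in *Cfb-/-* diabetic mice. *Krt20*, also a marker of injured tubule here, was 0.0233 to 0.0647 FPKM in WT control and 3.68 to 4.08 FPKM in WT diabetic mice. The sum of the 7 was 0.344 to 0.666 FPKM in the WT controls. In the 4 WT diabetic animals it was, in order, 4.54, 38.1, 49.9, and 19.2 FPKM. The part of these markers in the result for *Aqp2* was not tested.

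**Figure D3:**
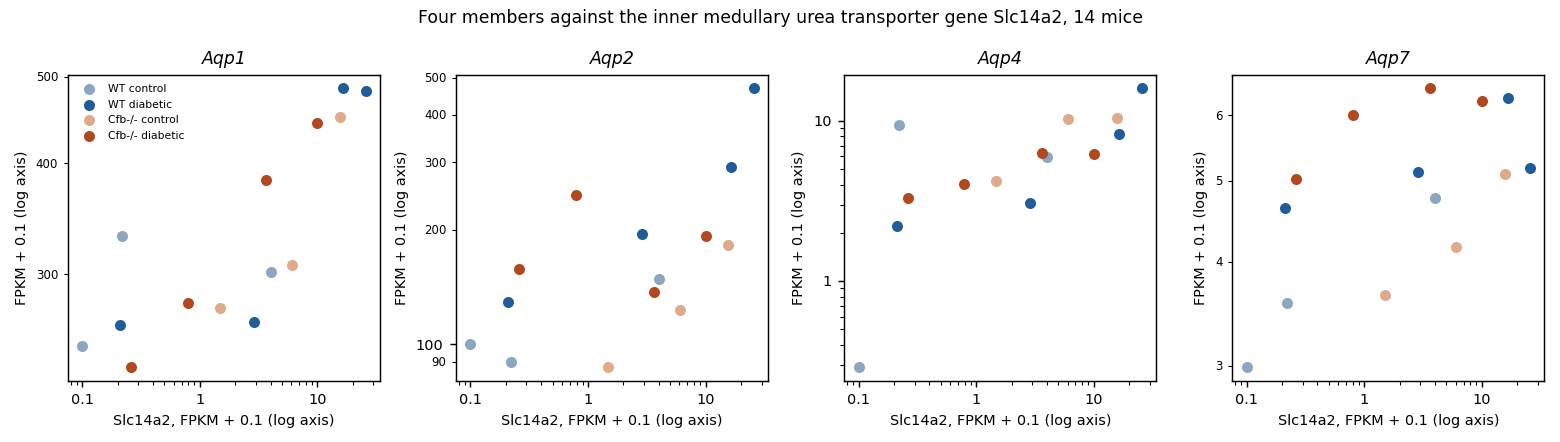
*Aqp1*, *Aqp2*, *Aqp4*, and *Aqp7* (vertical axes) against *Slc14a2* (horizontal axes), both as FPKM + 0.1 on log axes, with 1 point per mouse coloured by group. WT diabetic mice 2 and 3 lie at the right, with *Slc14a2* of 25.7 and 16.4 FPKM, and WT control mouse 3, where *Slc14a2* is listed at 0, lies at the left.

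*Aqp5*, an apical channel best known from salivary gland, lacrimal gland, and lung, was the lowest of the members. It was 0.0404, 0.129, and 0.0396 FPKM in the WT control mice and 0.317, 1.25, 0.540, and 0.341 FPKM in the WT diabetic mice. Every WT diabetic mouse was above every WT control mouse, and the log2 fold change was 1.93 (SE 0.52, adjusted p = 0.00786), or 1.65 above the median of all genes. The *Cfb-/-* values were 0.165, 0, and 0.265 FPKM in the *Cfb-/-* control mice and 0.495, 0.150, 0.0701, and 0.111 FPKM in the *Cfb-/-* diabetic mice, with 1 control mouse listed at 0. The first *Cfb-/-* diabetic mouse was above the others, the remaining 3 lay within the control range, and the log2 fold change was 0.34 (SE 0.52, adjusted p = 0.636). The salivary markers *Smr3a*, *Pip*, and *Dcpp1* were listed at 0 in all mice, and the fourth of that list, *Bhlha15*, was at most 0.262 FPKM. The WT call was lost after quantile normalization, at 1.19 (adjusted p = 0.0970), and with both WT diabetic mice 2 and 3 left out, at 1.38 (adjusted p = 0.0742).

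*Aqp6*, which resides in intracellular vesicles of acid-secreting intercalated cells beside the proton pump, rose in both genotypes. It was 10.7, 11.4, and 10.2 FPKM in the WT control mice and 22.4, 33.8, 31.4, and 33.2 FPKM in the WT diabetic mice. All WT diabetic mice lay far above the highest control mouse, and the level rose 2.75-fold on this scale, from 10.8 ± 0.617 to 30.2 ± 5.29 FPKM. On the *Cfb-/-* background it was 13.7, 9.50, and 16.6 FPKM in the *Cfb-/-* control mice and 37.4, 23.9, 17.1, and 28.1 FPKM in the *Cfb-/-* diabetic mice, again without overlap. On the log2 scale it differed by 1.46 (SE 0.23, adjusted p = 2.53e-04) in WT and 0.98 (SE 0.23, adjusted p = 0.00490) in *Cfb-/-* mice, 1.17 and 0.76 above the median of all genes. Over the alternatives it ranged from 1.18 to 1.77 in WT and from 0.74 to 1.17 in *Cfb-/-* mice, with an adjusted p of at most 0.00476 and 0.0352. With *Slc14a2* as covariate it was 1.29 (adjusted p = 0.00120) and 1.07 (adjusted p = 0.00342).

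Few markers of the intercalated cell passed the test. Of 8, 1 rose and 1 fell in WT diabetic mice, with a median of -0.10. *Slc4a1*, the basolateral anion exchanger of the acid-secreting cell and of red cells, rose at 0.59 (adjusted p = 0.00716), and *Slc26a4*, which encodes pendrin of the base-secreting cell, fell at -0.92 (adjusted p = 0.0422). *Foxi1*, the transcription factor of these cells, was at 0.54 (adjusted p = 0.158), and *Atp6v1b1*, a subunit of the proton pump, at -0.0075 (adjusted p = 0.986). Among *Cfb-/-* mice 1 of the 8 rose, *Atp6v0d2*, another pump subunit, at 0.78 (adjusted p = 0.0219), and the median was 0.32. Summed over the list, these markers were 107 to 159.7 FPKM in WT control and 86.8 to 161 FPKM in WT diabetic mice.

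*Aqp11*, an intracellular channel of the proximal tubule whose loss gives mice polycystic kidneys, fell in both genotypes. It was 39.97, 39.9, and 33.4 FPKM in the WT control mice and 23.3, 24.0, 22.8, and 18.8 FPKM in the WT diabetic mice. With *Cfb* deleted it was 35.4, 33.6, and 34.6 FPKM in the *Cfb-/-* control mice and 16.0, 16.4, 24.6, and 19.7 FPKM in the *Cfb-/-* diabetic mice. No diabetic mouse reached the lowest control mouse of its genotype. The log2 fold change was -0.76 (SE 0.14, adjusted p = 6.28e-04) in WT and -0.87 (SE 0.14, adjusted p = 2.87e-04) in *Cfb-/-* mice, or -1.05 and -1.09 relative to the median of all genes. Over the alternatives it ranged from -1.05 to -0.46 in WT and from -1.11 to -0.68 in *Cfb-/-* mice, with an adjusted p of at most 0.0201 and 0.00308.

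Markers of the proximal tubule fell alongside *Aqp11*. Of 8, 5 fell in WT and 7 in *Cfb-/-* diabetic mice, beside 9.97% and 6.40% of all genes. In both 0 rose, and the medians were -0.65 and -0.91. They included *Slc5a2*, the glucose transporter SGLT2, at -2.99 (adjusted p = 3.85e-04) in WT mice, and *Slc34a1*, a phosphate transporter, at -1.34 (adjusted p = 9.94e-05). Their summed level was 4481 to 4775 FPKM in WT control and 2196 to 2649.5 FPKM in WT diabetic mice, and 4096 to 4359.9 FPKM and 1634 to 2595 FPKM in the *Cfb-/-* groups. After quantile normalization 3 of the 8 fell in WT and 6 in *Cfb-/-* mice, beside 20.1% and 14.9% of all genes. After median-ratio scaling 6 and 7 fell, beside 22.4% and 14.1%. The part of proximal tubule cells in the fall of *Aqp11* was not tested.

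*Aqp1*, the main water channel of the proximal tubule and of the thin descending limb, also present in red cells and in the endothelium of the descending vasa recta, did not pass the test in either direction. It was 331, 302, and 249 FPKM in the WT control mice and 263, 482, 485, and 265 FPKM in the WT diabetic mice. WT diabetic mice split into a higher pair, mice 2 and 3, and a lower pair within the control range. Among *Cfb-/-* animals it was 307, 275, and 450.3 FPKM in the *Cfb-/-* control mice and 279, 236, 383, and 444 FPKM in the *Cfb-/-* diabetic mice. Its log2 fold change was 0.29 (SE 0.27, adjusted p = 0.390) in WT and -0.048 (SE 0.27, adjusted p = 0.910) in *Cfb-/-* mice, with a 95% interval -0.29 to 0.87 in WT and -0.63 to 0.53 in *Cfb-/-* mice. With *Slc14a2* as covariate the signs turned, to -0.12 (adjusted p = 0.629) and 0.16 (adjusted p = 0.518). Of 7 endothelial markers, 5 rose in diabetic mice of each genotype (with median-ratio scaling, 2 in WT and 3 in *Cfb-/-*). Of the 6 erythroid markers 1 rose (*Slc4a1*) and 2 fell in WT, and 4 fell in *Cfb-/-* diabetic mice. After median-ratio scaling 0 rose and 4 fell in WT mice. The endothelial sum was 125 to 146 FPKM in WT control and 183 to 204 FPKM in WT diabetic mice, and the erythroid sum was 569.6 to 886 FPKM and 171 to 791 FPKM. Their part in the level of *Aqp1* was not tested.

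**Figure D4:**
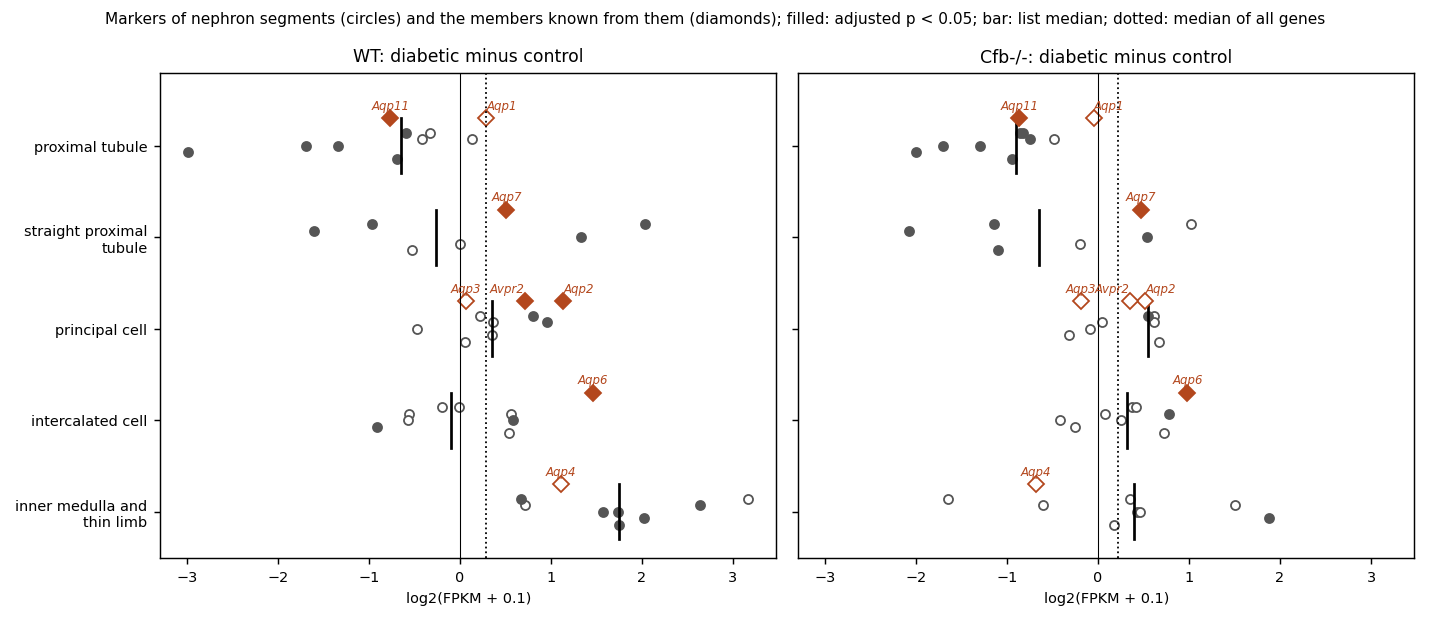
Differences between diabetic and control mice in log2(FPKM + 0.1) for markers of 5 nephron segments (circles) and for members known from each (diamonds), in WT (left) and *Cfb-/-* mice (right). Filled symbols passed an adjusted p of 0.05, the bar is the median of a list, and the dotted line the median of all genes. *Aqp11* lies among the proximal markers, whereas *Aqp6* lies above all 8 intercalated cell markers.

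*Aqp7*, the glycerol and water channel of the brush border of the straight proximal tubule, rose slightly in both genotypes. It was 3.46, 4.67, and 2.89 FPKM in the WT control mice and 4.55, 5.08, 6.19, and 5.03 FPKM in the WT diabetic mice. The *Cfb-/-* values were 4.06, 3.55, and 5.0 FPKM in the *Cfb-/-* control mice and 5.90, 4.93, 6.36, and 6.13 FPKM in the *Cfb-/-* diabetic mice. In each genotype 1 control mouse reached into the diabetic range. On the log2 scale it differed by 0.51 (SE 0.17, adjusted p = 0.0252) in WT and 0.47 (SE 0.17, adjusted p = 0.0460) in *Cfb-/-* mice, 0.22 and 0.25 above the median of all genes. Both calls were lost after median-ratio scaling, at 0.23 (adjusted p = 0.341) and 0.23 (adjusted p = 0.397), and quantile normalization, at 0.14 (adjusted p = 0.599) and 0.17 (adjusted p = 0.528). The WT call was lost without diabetic mouse 3, at 0.43 (adjusted p = 0.0708), and without control mouse 1, at 0.48 (adjusted p = 0.0565), or 3, at 0.36 (adjusted p = 0.126). It was also lost with *Slc14a2* as covariate, at 0.28 (adjusted p = 0.103), with both WT diabetic mice 2 and 3 left out, at 0.40 (adjusted p = 0.151), and in a fit of only the compared groups, at 0.51 (adjusted p = 0.0524). The *Cfb-/-* call was lost without diabetic mouse 1, at 0.46 (adjusted p = 0.0921), 3, at 0.43 (adjusted p = 0.0950), or 4, at 0.44 (adjusted p = 0.0866), and without control mouse 1, at 0.45 (adjusted p = 0.113), or 2, at 0.36 (adjusted p = 0.189), or with no filter on low values, at 0.47 (adjusted p = 0.0771).

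Adipocytes also express *Aqp7*, and 6 of 8 tested adipocyte markers rose in WT diabetic mice. Their summed level was 55.5 to 98.7 FPKM there, against 18.4 to 33.1 FPKM in WT control mice. Much of it was *Fabp4*, a fatty acid binding protein that endothelium also makes. *Fabp4* was 44.1 to 68.7 FPKM in WT diabetic and 18.3 to 32.9 FPKM in WT control mice. *Adipoq*, which encodes adiponectin, was 0.623 to 3.72 FPKM in WT diabetic and 0 to 0.0408 FPKM in WT control mice. In *Cfb-/-* diabetic mice 1 of the 8 rose, *Fabp4*, at 0.72 (adjusted p = 0.0233) and 32.1 to 43.9 FPKM. The summed level was 32.5 to 44.2 FPKM there and 16.2 to 46.1 FPKM in *Cfb-/-* control mice. *Cidec*, a lipid droplet protein, was 0.102 to 0.386 FPKM in *Cfb-/-* diabetic mice, *Adipoq* was 0 to 0.0364 FPKM, and *Plin1*, *Lep*, *Cfd*, and *Retn* were listed at 0 in all 4. The part of adipocytes in the level of *Aqp7* was not tested. Among 6 markers of the straight proximal tubule, 2 rose and 2 fell in WT and 1 rose and 3 fell in *Cfb-/-* diabetic mice.

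*Aqp8*, a channel for water and ammonia that is better known from pancreas, liver, and colon, was low and spread widely. It was 0.496, 1.94, and 2.27 FPKM in the WT control mice and 1.51, 1.42, 1.19, and 0.790 FPKM in the WT diabetic mice, and 1.91, 1.26, and 0.641 FPKM in the *Cfb-/-* control mice and 1.45, 1.44, 1.72, and 1.13 FPKM in the *Cfb-/-* diabetic mice. All groups overlapped. The log2 fold change was -0.14 (SE 0.42, adjusted p = 0.809) in WT and 0.27 (SE 0.42, adjusted p = 0.656) in *Cfb-/-* mice, and its sign in WT mice turned under several alternatives. Of the pancreatic acinar markers *Cela2a*, *Cpa1*, *Prss2*, *Pnlip*, and *Amy2a5*, none exceeded 0.0709 FPKM in any mouse, and *Cela1*, the 1 gene of that list that was tested, fell at -1.14 (adjusted p = 0.00140) in WT and -0.64 (adjusted p = 0.0434) in *Cfb-/-* mice.

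Between the genotypes no member passed the test. Between *Cfb-/-* and WT diabetic mice 0 members passed an adjusted p of 0.05 in limma, beside 0.00671% of all genes, which is *Cfb* alone, and 1 had an unadjusted p under 0.05, beside 3.0%. That member was *Aqp5*, with a log2 fold change of -1.22 (SE 0.48, limma p = 0.0222, adjusted p = 1.0, exact permutation p = 0.0857), lower in 3 of 4 *Cfb-/-* diabetic mice than in every WT diabetic mouse. The other 9 log2 fold changes lay between -0.44 (*Aqp2*) and 0.23 (*Aqp8*). For *Aqp6* the 95% interval ran from -0.68 to 0.25 and for *Aqp11* it ran from -0.50 to 0.047, while for *Aqp4* it ran from -2.06 to 1.68. Between *Cfb-/-* and WT control mice 0 members passed, beside 0.00671% of all genes, and 0 had an unadjusted p under 0.05, beside 17.5%.

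The calls of *Aqp2*, *Aqp5*, and *Avpr2* were made in WT and not in *Cfb-/-* mice, but the difference between the genotypes was not shown. In the interaction of genotype with diabetes 0 members passed an adjusted p of 0.05 in limma, beside 0% of all genes, and 1 had an unadjusted p under 0.05, beside 5.77%. The diabetic response in *Cfb-/-* minus that in WT mice was -0.62 (SE 0.52, adjusted p = 0.787) for *Aqp2*, -1.59 (SE 0.73, adjusted p = 0.779) for *Aqp5*, -0.36 (SE 0.32, adjusted p = 0.796) for *Avpr2*, -0.48 (SE 0.33, adjusted p = 0.779) for *Aqp6*, and -0.10 (SE 0.20, adjusted p = 0.886) for *Aqp11*. For *Aqp2* the 95% interval ran from -1.73 to 0.49, which includes no difference as well as one as large as the whole WT response.

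A list of vasopressin signalling held genes that pass the signal on, genes that end it, and the receptor gene *Avpr1a*. Of its 21 tested genes, 13 rose in WT diabetic mice, beside 36.2% of all genes, and 7 in *Cfb-/-* diabetic mice, beside 27.4%. In both 0 fell, beside 9.97% and 6.40%, and the medians were 0.64 and 0.35. After median-ratio scaling 7 rose and 1 fell in WT mice, beside 22.7% and 22.4% of all genes, and after quantile normalization 3 rose, beside 15.9%. The largest rises in WT mice were those of *Prkar2b*, a regulatory subunit of protein kinase A, at 1.38 (adjusted p = 0.0127), and *Pde4a*, a phosphodiesterase that breaks down cAMP, at 1.05 (adjusted p = 0.0105). In *Cfb-/-* mice *Prkar2b* was at -0.26 (adjusted p = 0.650), and *Pde4a* rose at 0.89 (adjusted p = 0.0313). *Adcy6*, the adenylyl cyclase that makes cAMP in the collecting duct, rose at 0.85 (adjusted p = 0.00497) in WT and was at 0.50 (adjusted p = 0.0824) in *Cfb-/-* mice. *Creb1*, which binds the cAMP response element, rose at 0.66 (adjusted p = 0.00941) in WT and was at 0.33 (adjusted p = 0.178) in *Cfb-/-* mice. *Gnas*, the stimulatory G protein that couples the receptor to the cyclase, was at -0.047 (adjusted p = 0.791), and *Avpr1a*, the vasopressin receptor of vessels, at 0.34 (adjusted p = 0.263) in WT mice. Their *Cfb-/-* values were 0.14 (adjusted p = 0.425) and 0.48 (adjusted p = 0.146). The sign for *Gnas* turned with the scaling.

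Among 14 other receptors, ligands, and enzymes that act on water transport in the collecting duct, 10 rose in WT and 6 in *Cfb-/-* diabetic mice, beside 36.2% and 27.4% of all genes, and 0 fell. After median-ratio scaling 6 rose in WT and 4 in *Cfb-/-* mice, beside 22.7% and 18.5%, and after quantile normalization 6 rose and 1 fell in WT mice. On the deposited scale the medians were 0.90 and 0.60. *Ptgs2*, the inducible cyclooxygenase that makes prostaglandins, had the highest fold change, at 2.09 (adjusted p = 5.51e-04), with 0.00941 to 0.0815 FPKM in WT control and 0.280 to 0.922 FPKM in WT diabetic mice. Of the prostaglandin E2 receptors, *Ptger3*, which lowers cAMP, rose at 1.33 (adjusted p = 0.0171) and *Ptger4*, which raises it, at 1.30 (adjusted p = 0.00109). *Edn1*, which encodes endothelin, a peptide that opposes vasopressin in the collecting duct, rose at 1.58 (adjusted p = 2.67e-04), and its receptors *Ednrb* and *Ednra* rose at 1.55 (adjusted p = 1.41e-04) and 1.06 (adjusted p = 0.00502). *P2ry2*, a receptor for extracellular ATP that likewise opposes vasopressin, rose at 1.75 (adjusted p = 7.60e-04). In *Cfb-/-* mice *Ptgs2* and *Ednrb* rose at 1.39 (adjusted p = 0.010) and 0.62 (adjusted p = 0.0481), *Ptger4*, *Edn1*, and *Ednra* rose at 1.33 (adjusted p = 0.00112), 1.44 (adjusted p = 6.34e-04), and 1.21 (adjusted p = 0.00259), and *P2ry2* and *Ptger3* were at 0.87 (adjusted p = 0.0523) and 0.76 (adjusted p = 0.168).

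Of 20 genes for the movement of AQP2 vesicles, 4 rose and 2 fell in WT and 3 rose in *Cfb-/-* diabetic mice. The medians were 0.13 and 0.14, beside 0.29 and 0.22 for all genes. After median-ratio scaling 1 rose and 3 fell in WT mice, and after quantile normalization 7 rose and 0 fell. Quantile normalization also turned the order, with medians of 0.015 and 0.089, beside -0.051 and -0.054 for all genes. The 1 change above 1 was in *Lgals3*, galectin 3, which macrophages and injured tubules also make, at 1.58 (adjusted p = 1.51e-04) in WT and 1.76 (adjusted p = 7.95e-05) in *Cfb-/-* mice. All 6 macrophage markers rose in WT and 5 in *Cfb-/-* diabetic mice, and all 6 markers of injured tubule rose in both. Their part in the rise of *Lgals3* was not tested.

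Of 15 transcription factors of the collecting duct and of the response to tonicity, 11 rose in WT and 6 in *Cfb-/-* diabetic mice, beside 36.2% and 27.4% of all genes, and 0 fell, with medians of 1.03 and 0.59. After median-ratio scaling 9 rose and 1 fell in WT, and 1 rose in *Cfb-/-* mice, beside 22.7% higher and 22.4% lower in WT and 18.5% higher in *Cfb-/-* mice over all genes. *Nfat5*, the tonicity-responsive factor known to act on *Aqp2*, rose at 0.99 (adjusted p = 0.00382) in WT and was at 0.44 (adjusted p = 0.170) in *Cfb-/-* mice. *Elf5*, a factor of the principal cell, rose at 2.40 (adjusted p = 0.0113) in WT mice and was at -0.0013 (adjusted p = 0.999) in *Cfb-/-* mice, and its WT values, 0.171, 0.244, and 0.0522 FPKM in controls and 0.442, 4.67, 1.44, and 0.582 FPKM in diabetic animals, were highest in the mouse with the most *Aqp2*. The epithelial factors *Klf5*, *Ehf*, *Elf3*, and *Grhl2* rose at 2.99, 1.74, 1.46, and 1.32, and *Tfap2b*, of the distal nephron, at 1.24. In *Cfb-/-* mice *Klf5*, *Elf3*, *Grhl2*, and *Tfap2b* rose at 1.31, 0.75, 0.80, and 0.79, and *Ehf* was at 0.64 (adjusted p = 0.175). Urothelial markers moved with these factors in WT mice, where all 7 rose and the sums given above for *Aqp2* did not overlap. In *Cfb-/-* mice 1 of the 7 rose, *Krt20*, which is also a marker of injured tubule here, at 4.14 (adjusted p = 1.28e-07). In WT diabetic mice *Krt20* was 3.68 to 4.08 FPKM, beside a lowest urothelial sum of 4.54 FPKM. The lists of urothelium and injured tubule therefore share a gene. All 6 markers of injured tubule rose in both genotypes. The part of either in the rises of these factors was not tested. *Fos* and *Jun*, early response genes, rose at 2.24 (adjusted p = 0.0263) and 1.03 (adjusted p = 0.0350) in WT mice and were at 0.29 (adjusted p = 0.794) and 0.73 (adjusted p = 0.145) in *Cfb-/-* mice. *Hoxb7* and *Gata2*, both expressed in the collecting duct, were at 0.10 (adjusted p = 0.578) and 0.32 (adjusted p = 0.247).

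**Figure D5:**
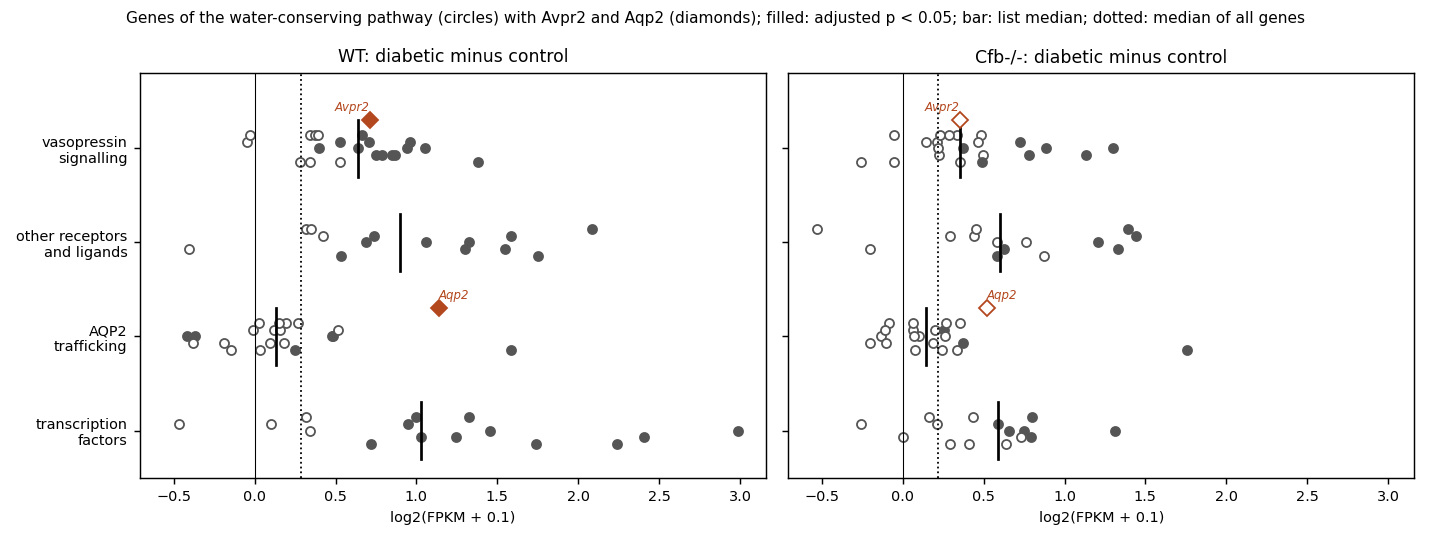
Differences between diabetic and control mice in log2(FPKM + 0.1) for genes of the vasopressin pathway, other receptors and ligands, AQP2 trafficking, and transcription factors (circles), with *Avpr2* and *Aqp2* (diamonds), in WT (left) and *Cfb-/-* mice (right). Filled symbols passed an adjusted p of 0.05, the bar is the median of a list, and the dotted line the median of all genes. On this scale the median of the trafficking genes lies below the dotted line and those of the other 3 lists lie above it, but after quantile normalization the trafficking median was above that of all genes.

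The genes most like 3 of the members over the 14 mice were taken from 11395 genes with a mean of at least 1 FPKM, by Pearson's r of log2(FPKM + 0.1). For *Aqp2* they were *Pfkl* (0.95), *Apela* (0.94), and *Mrps6* (0.93). For *Aqp1* they were *Slc6a18* (0.93), *Ranbp3l* (0.91), and *Klhdc2* (0.91), and for *Aqp7* *Fst* (0.94), *Car5a* (0.93), and *Irx2* (0.90). Among the members, r was highest between the neighbours *Aqp2* and *Aqp5*, at 0.91, and lowest between *Aqp6* and *Aqp11*, at -0.86. The mice of a group share diet, treatment, and genotype, so these values describe the 14 mice and are not tests.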

How the data were processed

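Stranded mRNA libraries of kidney RNA were read from both ends on an Illumina HiSeq instrument. The submitters' processing notes name Trimmomatic, HISAT2, Cufflinks, HTSeq, and DESeq with the build GRCm38.p6 and no versions. The authors deposited 1 table per mouse with an FPKM value for each gene, and how strand was counted is not given in the sources used here. Read counts were not used here, so precision is known only from the spread between mice.

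log2(FPKM + 0.1) was tested by limma 3.58.1 (R 4.3.3) with 1 mean per group over all 14 mice and a mean-variance trend, for genes that reached 0.1 FPKM in 3 or more mice. Tested on data simulated for the WT comparison (14912 genes), it found 45 of the 67 genes changed by 1 on the log2 scale. At 2 it found 63 of 67 genes and at 3 it found 65 of 66. It also called 8 unchanged genes. Far fewer genes were changed there than were called in WT mice, so this recovery need not hold for these data. Exact permutation tests used scipy 1.17.1. The members and all gene lists were chosen with earlier results of these data known. Named genes were all members, listed pathway genes with an adjusted p under 0.05 and a log2 fold change of at least 1 in WT mice (at most 8 per list), *Avpr1a*, *Gnas*, *Adcy6*, *Creb1*, *Nfat5*, and the 3 genes most like *Aqp1*, *Aqp2*, and *Aqp7*. List genes named beyond this rule, such as marker genes, were chosen after their values were seen. Marker lists for the thick ascending limb, distal convoluted tubule, and connecting tubule gave 3 of 6, 0 of 6, and 1 of 5 higher in WT diabetic mice, with 1, 0, and 0 lower, and 2, 0, and 2 higher in *Cfb-/-* diabetic mice, with 1, 0, and 0 lower. RefSeq starts gave the promoters. Alternatives were other pseudocounts and filters, 3 scalings, a fit of only the groups compared, a block for the replicate number, and each mouse left out.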

Additional observations from a re-analysis of the deposited data

How the results depend on the processing

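In WT mice 6 members were called, and 3 after median-ratio scaling, 3 after quantile normalization, 3 with *Slc14a2* as covariate, 2 without WT diabetic mice 2 and 3, and 3 to 6 with 1 mouse left out. The covariate and the removal of both mice were chosen after seeing the data. In *Cfb-/-* mice 3 were called, and 3 after median-ratio scaling, 2 after quantile normalization, 2 with no filter on low values, and 2 to 3 with 1 mouse left out. The 3 after median-ratio scaling included *Aqp3*, lower at -0.44 (adjusted p = 0.0290), in place of *Aqp7*. With *Slc14a2* as covariate 4 were called in *Cfb-/-* mice, *Aqp2* among them. No genotype or interaction setting called a member. For those comparisons single members other than *Aqp5* were followed only through these counts. Fewer mice were tested where mice were left out, and otherwise the cause was not tested.

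Signs turned only for values that did not pass the test. In WT mice *Aqp1* was -0.12 with *Slc14a2* as covariate and -0.14 without WT diabetic mice 2 and 3. *Aqp3* was -0.22 after median-ratio scaling, -0.13 without those 2 mice, and -0.065 to 0.15 with 1 mouse left out. *Aqp4* was -0.089 with the covariate and -0.45 to 2.05 with 1 mouse left out. *Aqp8* was 0.17 when scaled to 1000000, 0.0047 with the replicate block, and -0.77 to 0.23 with 1 mouse left out. In *Cfb-/-* mice *Aqp1* was 0.14 when scaled to 1000000, 0.10 after quantile normalization, 0.16 with the covariate, and -0.20 to 0.16 with 1 mouse left out. After quantile normalization *Aqp5* was -0.20 and *Aqp8* -0.32, and with 1 mouse left out they were -0.20 to 0.73 and -0.12 to 0.60. Between control genotypes *Aqp5* was -0.0898 with the covariate and -0.021 to 0.91 with 1 mouse left out.

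The replicate numbers did not pair the mice: of 19 same-numbered pairs, 3 had deviations correlated over 0.1, with a range of -0.388 to 0.243. With the replicate block 5 members were called in WT and 2 in *Cfb-/-* mice, and *Aqp7* was at 0.51 (adjusted p = 0.0552) and 0.46 (adjusted p = 0.0933). With FPKM alone, the depth behind the lowest member, *Aqp5*, is unknown.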
